A study of Mus musculus with 16 samples.

Results

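Aminoacyl-tRNA synthetases are the enzymes that attach each amino acid to its own tRNA. Their genes were chosen by name (a one-letter amino acid code followed by ars, with Eprs, Farsa, Farsb and Tarsl2 and the forms ending in 2) and by having at least 1 read, and 38 of the 21627 genes with reads met this. Of these, 21 encode enzymes that work in the cytosol and 17 encode enzymes that are imported into mitochondria. Kars and Gars encode both forms and were counted with the cytosolic genes. Expression and isoforms were measured by long-read sequencing (PacBio Iso-seq) in cortex and striatum of 3-month-old male mice, with 4 samples per region and genotype. R6/2 mice carry exon 1 of the human mutant huntingtin gene with an expanded CAG repeat under the human huntingtin promoter, and non-transgenic (NT) mice were the controls. The R6/2 line is kept on a mixed B6CBA background. The transgene itself was not analysed here, and each sample is a whole dissected region of 1 hemisphere with all of its cell types. In such bulk tissue, fewer cells of a type and less RNA per cell cannot be told apart.

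In the cytosol, synthetases feed the ribosome with charged tRNA, and several of them (Dars, Eprs, Iars, Kars, Lars, Mars, Qars and Rars) are held together with scaffold proteins in the multisynthetase complex. Mitochondria use their own set, encoded by nuclear genes, for the tRNAs of the mitochondrial genome. Amino acid shortage and stress of the endoplasmic reticulum activate the transcription factor ATF4, which raises the transcription of many cytosolic synthetases. Inherited defects of cytosolic and mitochondrial synthetases affect the nervous system, peripheral nerve for Gars and Yars among others.

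The Sars isoform shares below concern a cassette exon of Sars, the seryl-tRNA synthetase, at chr3:108427861-108427932 (mm10, minus strand). It is exon 10 of 12, lies in the coding region and has 72 bases, that is 24 codons, so the reading frame is kept without it. Capitals mark the cassette exon, and the lower-case bases are 20 of each neighbouring exon in the 12-exon and 11-exon isoforms, 5′ to 3′.
Sars 12-exon isoform: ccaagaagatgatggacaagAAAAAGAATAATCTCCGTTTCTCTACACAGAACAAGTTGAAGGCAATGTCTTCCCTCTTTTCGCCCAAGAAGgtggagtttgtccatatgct
Sars 11-exon isoform: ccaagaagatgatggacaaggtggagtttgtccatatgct

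For Kars, the lysyl-tRNA synthetase, the first coding exon decides whether the enzyme carries a mitochondrial targeting sequence. The coding parts of the alternative first coding exons are shown with the start codon in capitals. They lie on the minus strand of chromosome 8 (mm10), at chr8:112008207-112008352 for the mitochondrial form and chr8:112011210-112011268 for the cytosolic form.
Kars mitochondrial form: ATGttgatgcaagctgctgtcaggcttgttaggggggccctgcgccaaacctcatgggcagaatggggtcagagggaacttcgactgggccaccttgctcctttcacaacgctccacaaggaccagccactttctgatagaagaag
Kars cytosolic form: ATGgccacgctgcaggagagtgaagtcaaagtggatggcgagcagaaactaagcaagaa

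Promoter sequences (RefSeq, GRCm38.p6, 250 bases before to 50 after the start) were matched by symbol for 27 of the 38 genes. The letters TGATGNAA, the core of the element bound by ATF4 with its C/EBP partners, were searched on both strands. They were found in 5 of 13 matched cytosolic promoters (38.5%), in 0 of 14 mitochondrial promoters and in 4.51% of all 27025 promoters. A match in each of these 5 promoters is shown with 10 bases on each side and the motif in capitals (it reads in reverse in Gars, Aars, Iars and Tars), because among the matched promoters they were in cytosolic genes only. A match is a string of letters, not a measured binding site.
Yars, chr4:129189896-129189923, plus strand: cgagctcagcTGATGCAAcccgacggga
Gars, chr6:55037961-55037988, plus strand: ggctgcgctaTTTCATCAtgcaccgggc
Aars, chr8:111033841-111033868, plus strand: gcgggtcactTTTCATCAgagcgctctg
Iars, chr13:49682127-49682154, plus strand: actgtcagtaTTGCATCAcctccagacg
Tars, chr15:11399656-11399683, minus strand: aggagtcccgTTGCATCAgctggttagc

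Total reads per sample ran from 252885 to 808814 in the cortex and from 317050 to 1496196 in the striatum. Striatal NT 1, NT 2, R6/2 2 and R6/2 3 were deposited with 2 sets of counts, which were summed, and the other 4 striatal samples with 1 set. These striatal samples stood apart in ways that touch the results below: the mean length of the isoforms read was 2125 to 2197 bases with 2 sets and 1589 to 1840 bases with 1 set, and reads of the mitochondrial genome made up 0.408% to 0.852% and 1.42% to 3.28%. Both genotypes have a pair of each kind. The regional labels were borne out by markers, since the summed level of 8 striatal projection neuron genes was 9875 to 13593 CPM in striatal NT samples and 375 to 456 CPM in cortical NT samples. In R6/2 mice the same sums were 1837 to 3198 CPM in the striatum and 91.7 to 120 CPM in the cortex. The 6 marker genes of cortical excitatory neurons summed to 0 to 47.9 CPM in the striatum and to 136 to 220 CPM in the cortex.

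Each Iso-seq read comes from 1 amplified cDNA molecule, so counts scaled to library size (CPM) were not divided by transcript length. Without molecular identifiers, several reads can stem from the same original molecule. Long transcripts are still read whole less often, and levels of different genes are compared here only with this limit. Cytosolic genes took most of the reads. Their summed level was 2427 ± 249 CPM (SD, n = 4) in cortex NT, 2551 ± 244 CPM in cortex R6/2, 2042 ± 361 CPM in striatum NT and 2293 ± 394 CPM in striatum R6/2. The mitochondrial genes summed to 427 ± 107, 360 ± 39.3, 367 ± 71.0 and 363 ± 66.5 CPM in the same order. Cortical and striatal samples overlapped in both sums. In the striatum, the number of count sets split the samples: the cytosolic sum was 2270 to 2643 CPM in those with 2 sets and 1726 to 1971 CPM in those with 1 set, and the mitochondrial sum was 413 to 436 and 282 to 336 CPM.

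Sars had the most reads, 3517 over the 16 samples and 369 CPM on average. It was followed by Nars (asparaginyl, 249 CPM), Gars (glycyl, 215 CPM), Hars (histidyl, 208 CPM) and Yars (tyrosyl, 168 CPM). At the other end of the cytosolic genes stood Iars, the isoleucyl enzyme, with 94 reads and 8.94 CPM, and Vars, the valyl enzyme, with 19.0 CPM. The mitochondrial set was led by Fars2 (phenylalanyl, 78.4 CPM), Yars2 (tyrosyl, 41.6 CPM) and Rars2 (arginyl, 35.0 CPM), and its lowest members were Vars2 (3.72 CPM), Mars2 (4.96 CPM) and Lars2 (5.28 CPM). Neighbours in this order often overlapped across samples: Gars ranged from 92.5 to 307 CPM and Hars from 120 to 274 CPM. Of the 38 genes, 31 had a read in every sample, and Wars2, the mitochondrial tryptophanyl enzyme, was read in 13 of 16. A count of 0 allows up to 3 reads in that sample. Iars and 6 mitochondrial genes (Lars2, Mars2, Pars2, Sars2, Vars2 and Wars2) passed the filter on low counts in no genotype or region comparison, Ears2 passed for genotype in the striatum, and Vars, Aars2, Iars2 and Nars2 did not pass in the cortex.

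**Figure D1:**
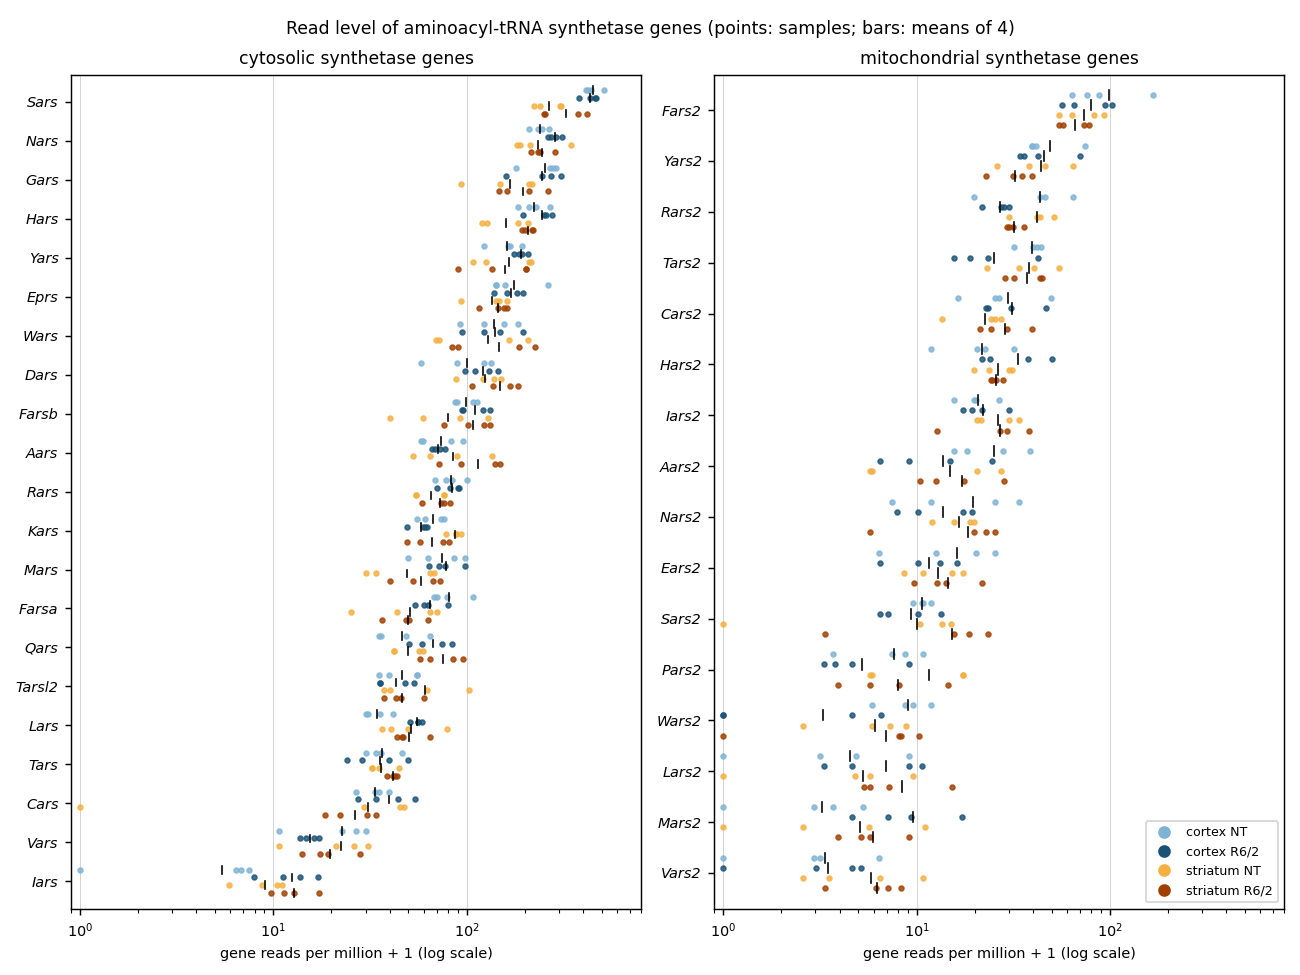
Expression of the synthetase genes in CPM + 1 on a log axis, 1 point per sample and a bar for the mean of each group, coloured by region and genotype, with cytosolic and mitochondrial genes in separate panels ordered by level. Sars heads the cytosolic panel at 222 to 512 CPM and Fars2 the mitochondrial panel at 53.6 to 166 CPM, and the 4 groups overlap for most genes.

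Whether the disease genotype changed synthetase expression was first asked per gene in the cortex, where 26 of the 38 genes passed the filter on low counts (19 cytosolic, 7 mitochondrial). None of them was called by edgeR's quasi-likelihood test at a Benjamini-Hochberg adjusted p of 0.05. Over all 6121 genes tested, 3.22% were called. At an unadjusted p under 0.05 there were 2 of 26 synthetases, against 17.3% of all genes, and DESeq2 called 0 with 1 at an unadjusted p under 0.05. The median log2 fold change was 0.01 for the cytosolic and -0.07 for the mitochondrial genes, beside 0.02 for all genes, and 11 of 19 cytosolic and 2 of 7 mitochondrial values were positive.

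Lars, Tars2, Qars and Wars are given sample by sample because of their values. Lars, the leucyl enzyme that also senses leucine for mTORC1, came nearest to the threshold in the cortex. Its levels were 29.8, 34.4, 29.3 and 40.6 CPM in NT samples 1 to 4 and 54.9, 55.0, 49.8 and 57.6 CPM in R6/2 samples 1 to 4. The groups did not overlap, but with a log2 fold change of 0.66 ± 0.24 (SE) the adjusted p was 0.162. How many of all tested genes separate this fully was not counted. Tars2, the mitochondrial threonyl enzyme, read 43.3, 40.9, 39.0 and 30.9 CPM in NT and 14.6, 22.4, 17.998 and 41.5 CPM in R6/2 samples. R6/2 sample 4 lay within the NT range, the log2 fold change was -0.70 ± 0.32 and the adjusted p was 0.266. Rars2 had 18.9, 45.2, 63.4 and 42.6 CPM in NT and 27.5, 26.5, 29.1 and 20.7 CPM in R6/2 samples, which overlap.

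In the striatum 31 synthetase genes were tested (20 cytosolic, 11 mitochondrial), and 0 were called by the same edgeR test, where 0.509% of all 7658 genes were. At an unadjusted p under 0.05 there was 1 of 31 beside 9.92% of all genes, and DESeq2 called 0, with 1 at an unadjusted p under 0.05. The medians were 0.15 for the cytosolic and 0.10 for the mitochondrial genes and -0.01 for all genes. Qars, the glutaminyl enzyme of the multisynthetase complex, had the lowest p. Its levels were 55.5, 41.2, 40.9 and 58.4 CPM in NT samples 1 to 4 and 64.0, 94.3, 84.4 and 56.6 CPM in R6/2 samples 1 to 4, with R6/2 sample 4 inside the NT range. The log2 fold change was 0.63 ± 0.23 with an adjusted p of 0.343. With the number of count sets as a term in the model, 4.34% of all genes were called and again 0 synthetases. Qars was then at 0.68 ± 0.20 with an adjusted p of 0.085.

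In the cortex Qars read 35.2, 47.4, 34.1 and 63.8 CPM in NT and 49.4, 83.5, 73.4 and 57.6 CPM in R6/2 samples, a log2 fold change of 0.49 ± 0.25 that was not called. Kars went the other way in the striatum, with 92.0, 87.1, 77.2 and 87.6 CPM in NT and 48.0, 74.6, 80.3 and 56.6 CPM in R6/2 samples and a log2 fold change of -0.41 ± 0.20, also not called. Its cortical levels were 54.1, 75.4, 73.1 and 60.0 CPM in NT and 58.6, 61.1, 48.5 and 59.9 CPM in R6/2 samples. The striatal groups overlapped through R6/2 sample 3 and the cortical ones more widely. The interaction of region and genotype was called for 0.0135% of 7390 genes and for 0 of 30 synthetases, and 0 of the 30 had an unadjusted p under 0.05, beside 2.63% of all genes. DESeq2 called 0 synthetases for the interaction, and 0 had an unadjusted p under 0.05.

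**Figure D2:**
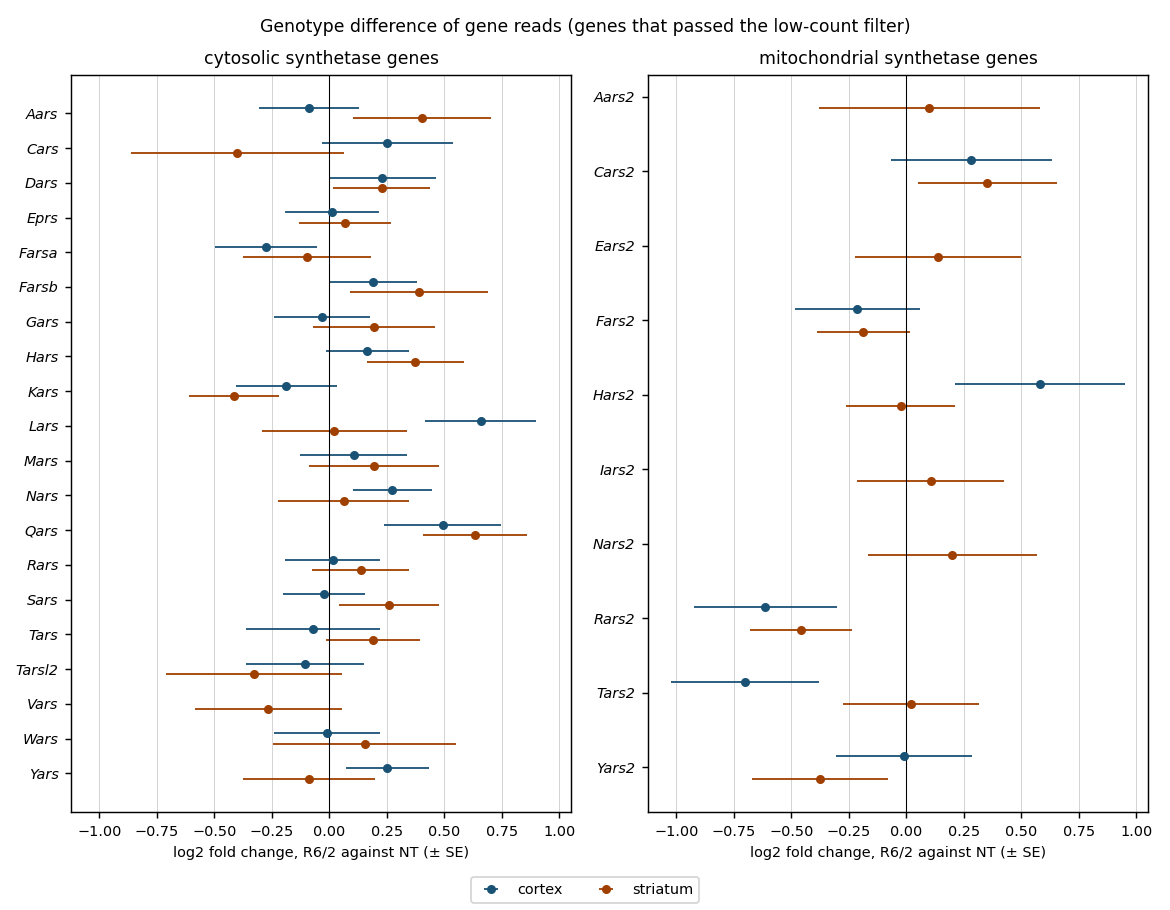
Log2 fold change of R6/2 over NT with its standard error for the synthetase genes that passed the filter, in cortex and striatum, cytosolic and mitochondrial genes apart. No gene is past the adjusted threshold in either region. Lars in cortex (0.66) and Qars in striatum (0.63) are the highest cytosolic values.

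The genes with the most reads were not called between genotypes either. Nars had 265, 243, 234 and 209 CPM in cortex NT and 289, 312, 273 and 263 CPM in cortex R6/2 samples, so that a single pair of samples overlapped, and in the striatum 180, 189, 213 and 346 CPM in NT and 234, 215, 239 and 285 CPM in R6/2 samples. Gars had 179, 269, 288 and 279 CPM in cortex NT and 159, 244, 273 and 307 CPM in cortex R6/2 samples. In the striatum Gars had 211, 217, 148 and 92.5 CPM in NT and 160, 210, 262 and 146 CPM in R6/2 samples.

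The mitochondrial genes with the most reads rested on fewer reads than these. Fars2 had 86.5, 62.4, 166 and 75.4 CPM in cortex NT and 64.1, 93.7, 55.4 and 101 CPM in cortex R6/2 samples, and 72.6 ± 17.5 and 65.0 ± 11.6 CPM (SD, n = 4) in striatum NT and R6/2. Yars2 had 40.6, 38.8, 73.1 and 38.7 CPM in cortex NT and 34.8, 69.3, 33.2 and 41.5 CPM in cortex R6/2 samples, and 42.8 ± 15.99 and 31.3 ± 7.13 CPM in striatum NT and R6/2. A single high sample set the widest spread in cortex NT for both genes. Rars2 had 50.4, 42.8, 40.9 and 29.2 CPM in striatum NT and 34.9, 29.0, 28.5 and 30.6 CPM in striatum R6/2 samples, a log2 fold change of -0.46 ± 0.22 that was not called. Groups overlapped for Gars, Fars2, Yars2 and Rars2 in both regions.

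Between regions, Sars was the synthetase gene that was called. Its levels were 425, 441, 512 and 416 CPM in cortex NT, 381, 432, 468 and 461 CPM in cortex R6/2, 306, 303, 222 and 239 CPM in striatum NT and 251, 419, 377 and 252 CPM in striatum R6/2 samples. All 4 striatal NT samples were below all 8 cortical samples, while striatal R6/2 sample 2 lay within the cortical range. Sars was lower in the striatum by a log2 fold change of -0.58 ± 0.15 over both genotypes (edgeR, adjusted p = 0.0075). It was the 1 synthetase called of 30 tested, where 28.6% of all 7390 genes were called and 14.6% were called lower, and DESeq2 called Sars alone as well. Leaving out striatum NT 1 gave 3 calls (Farsa and Hars added), and leaving out striatum NT 3 (Aars added), cortex NT 1 or cortex R6/2 2 (Kars added) gave 2. Within genotypes the Sars value was -0.74 ± 0.21 in NT mice (adjusted p = 0.026, 14.9% of all genes called) and -0.42 ± 0.21 in R6/2 mice (adjusted p = 0.232, 11.4% of all genes called). The interaction of region and genotype was 0.32 ± 0.30 for Sars (adjusted p = 1.0).

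At an unadjusted p under 0.05, where 39.8% of all genes stood, there were 6 of 30 synthetases. Farsa (a subunit of the phenylalanyl enzyme, -0.46), Gars (-0.45), Mars (methionyl, -0.45) and Hars (-0.35) had negative log2 fold changes beside Sars, and Aars (alanyl, 0.46) a positive one. The medians were -0.11 for cytosolic and -0.10 for mitochondrial genes, beside 0.01 for all genes. Oligodendrocyte marker genes, 6 of 6 higher in the striatum, summed to 3525 to 7120 CPM in the cortex and 12738 to 29970 CPM in the striatum, 8 of 8 striatal projection neuron genes were higher there, and 5 of 5 tested cortical excitatory neuron genes were lower. The part of cell types in these values was not tested.

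The regional values moved with the number of count sets. All cortical samples had 1 set, so against striatal samples of 2 sets, region and number of sets cannot be told apart. With the 4 striatal samples of 1 set against all cortical samples, 10 synthetases were called, all lower in the striatum (Aars2, Cars, Farsa, Farsb, Gars, Hars, Mars, Sars, Wars and Yars), where 22.7% of all 7448 genes were called lower. With the 4 samples of 2 sets, a comparison added after seeing the data, 4 were called, all higher (Aars 0.81 ± 0.16, Dars 0.54, Kars 0.48 and Wars 0.50 ± 0.18), where 19.8% of 7941 genes were called higher, and Sars was at -0.32 ± 0.14 with an adjusted p of 0.076. Wars, the tryptophanyl enzyme, was called in both with opposite directions. Its striatal levels were 208, 164, 225 and 185 CPM in the samples of 2 sets (NT 1, NT 2, R6/2 2 and R6/2 3) and 70.9, 68.2, 82.9 and 89.6 CPM in those of 1 set, while the cortex held 92.0 to 196 CPM. The samples of 2 sets lay above all of those with 1 set.

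Set directly against each other in the striatum, with genotype in the model, samples of 2 sets and of 1 set differed for 30.4% of all 7658 genes and for 9 of 31 synthetases. Of these, 7 were higher with 2 sets, as were 11.2% of all genes, including Wars (1.15 ± 0.16), Aars2 (the mitochondrial alanyl enzyme, 1.28 ± 0.38), Aars (0.70 ± 0.19) and Yars (0.67 ± 0.16), and 2 were lower, as were 19.1% of all genes, Tarsl2 (a threonyl enzyme, -0.81 ± 0.24) and Nars (-0.54 ± 0.18). What separates the sets beyond their read length and mitochondrial share was not tested.

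**Figure D3:**
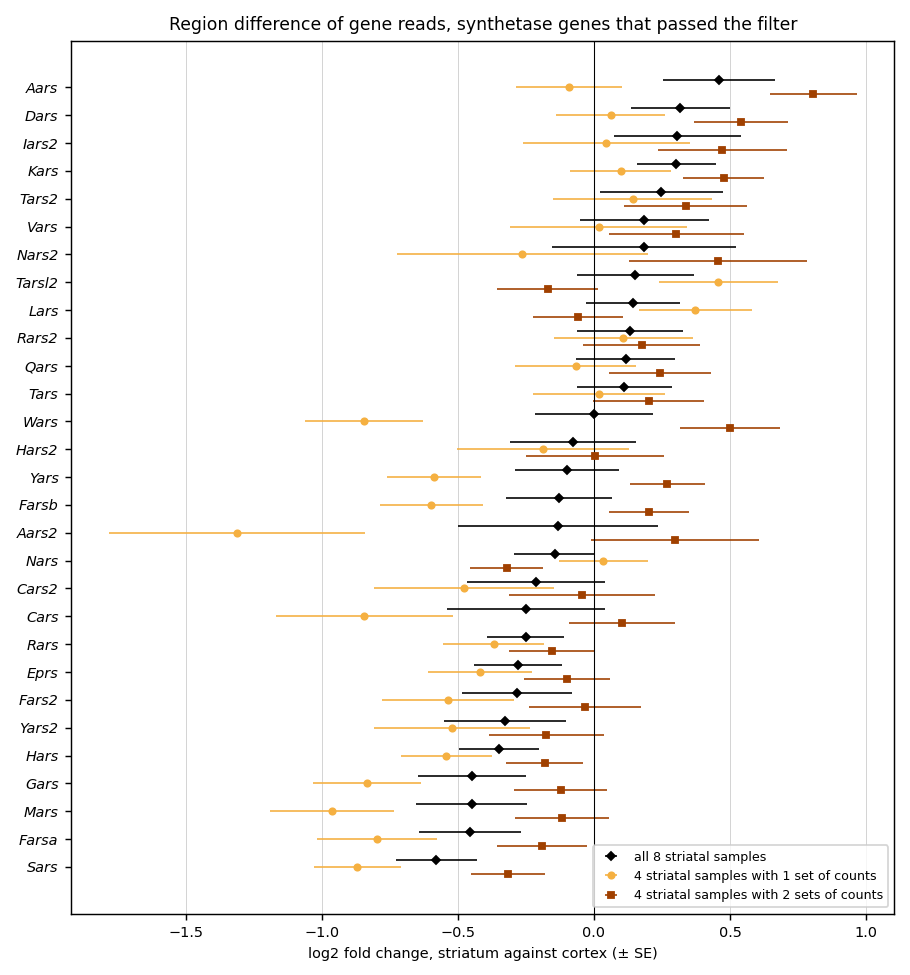
Log2 fold change of striatum over cortex with its standard error for the synthetase genes, for all striatal samples and separately for the 4 with 1 set and the 4 with 2 sets of counts. Sars is the gene called with all samples (-0.58), and Wars is called lower with 1 set and higher with 2 sets.

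How completely the transcripts were read differed widely between genes. TALON sorts the reads of a gene into known isoforms, incomplete splice matches (ISM, part of an annotated chain of junctions, a prefix at the 5′ end or a suffix at the 3′ end), NIC isoforms (annotated splice sites joined in an unannotated way) and NNC isoforms (at least 1 unannotated splice site). The median share of known isoforms was 79.1% over the 21 cytosolic genes (12.7% to 90.6%) and 65.7% over the 17 mitochondrial genes (14.5% to 100%). Dars (90.6%) and Gars (89.3%) were read almost wholly as known isoforms.

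Eprs, Lars and Tarsl2 were read mostly as prefix ISM, and what sets the ends of such reads was not tested. Eprs, the enzyme for both glutamate and proline, had 1512 reads, of which 13.2% were known and 63.9% were prefix ISM. Its coding transcript of 32 exons and 4906 bases took 3 reads, while a known 20-exon transcript with a retained intron and no coding sequence (ENSMUST00000192284) took 190. The prefix isoforms of Eprs with most reads had 14 exons (235 reads), 15 exons (120 reads) and 7 exons (109 reads), and the 14-exon form was read in 16 of 16 samples. Lars had 12.7% known and 58.8% prefix reads, with 136 reads of a 7-exon prefix and 56 of the whole 32-exon transcript. Tarsl2 had 13.9% known and 55.4% prefix reads. Aars was the opposite case, with 65.6% suffix reads. Its main suffix form kept 21 exons (337 reads, 3320 bases), as did the known transcript (265 reads, 5750 bases).

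Summed NIC reads made up a larger share in the mitochondrial set, and much of it came from Cars2 and Tars2. NIC reads made up 8.3% to 16.5% of the summed mitochondrial reads in a sample and 2.2% to 4.8% of the cytosolic ones, without overlap over the 16 samples, beside 2.80% to 5.25% over all genes. Without Cars2 and Tars2, which held 156 and 98 of the 456 mitochondrial NIC reads, the mitochondrial share was 1.89% to 10.8% in a sample and overlapped the cytosolic one. Pooled over the samples it was 12.3% with them and 6.47% without. Cars2 (cysteinyl) had 60.7% NIC reads, mainly a 15-exon form, and Tars2 had 30.5%. In the cytosolic set Rars, the arginyl enzyme, had 21.5% NIC reads, and Nars had 20.9% NNC reads. The ISM share of the cytosolic genes was 22.2% to 38.6% in the cortex, 29.4% to 53.9% in striatal samples of 1 set and 17.1% to 23.4% in those of 2 sets. Over all genes the same shares were 17.1% to 20.9%, 15.5% to 20.1% and 11.9% to 13.8%, and striatal samples of 2 sets lay below those of 1 set in both.

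**Figure D4:**
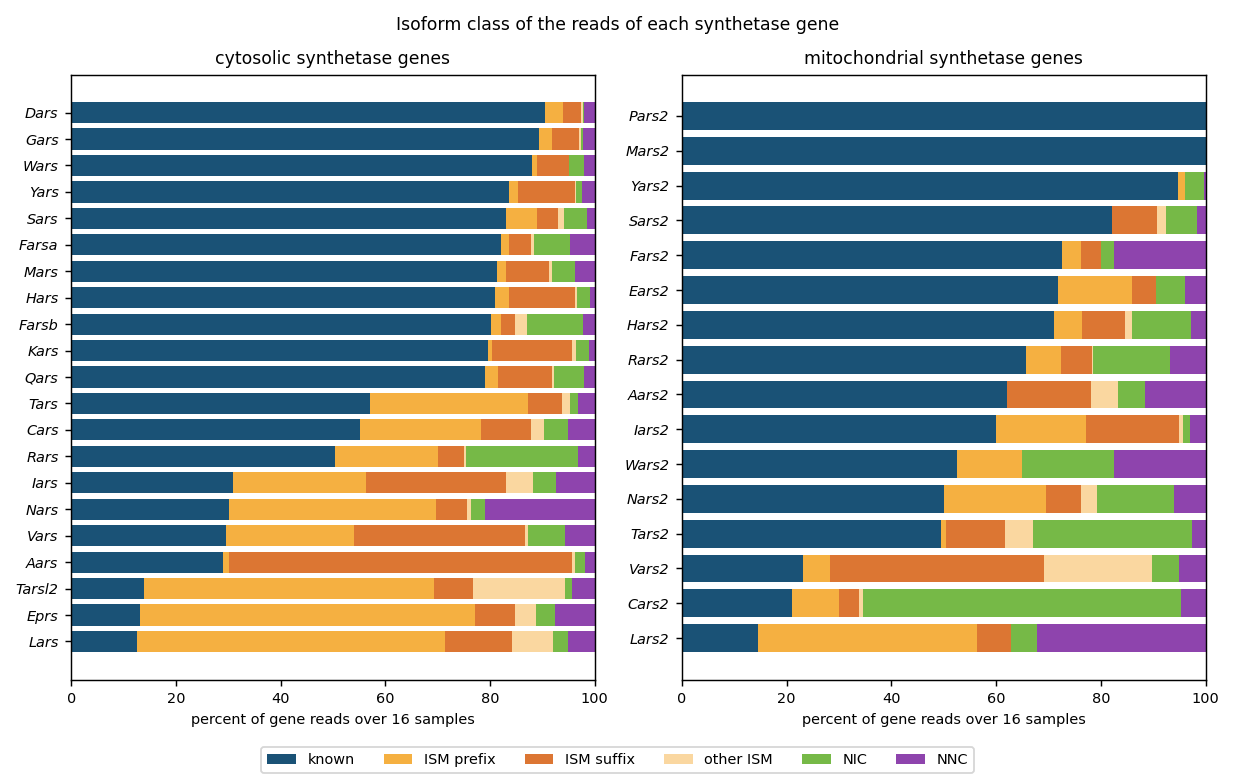
Share of a gene's reads in known, ISM prefix, ISM suffix, other ISM, NIC and NNC isoforms over the 16 samples, cytosolic and mitochondrial genes apart. Eprs, Lars and Tarsl2 have under 14% known reads and mostly prefix reads, and Cars2 has 60.7% NIC reads.

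Isoform usage was then compared between genotypes among isoforms with at least 10 reads (diffSpliceDGE of edgeR, Simes p per gene). In the cortex 1 of 13 synthetases was called, Sars (adjusted p = 0.0042), and 0.36% of 3058 genes were. That call rests on some of the samples: without cortex NT 2, NT 4, R6/2 2 or R6/2 3 the adjusted p was 0.144, 0.076, 0.053 and 0.086. In the striatum 0 of 18 were called beside 0.0676% of 4437 genes, with an unadjusted p under 0.05 in 3.99% of all genes. Sars had an unadjusted p of 0.006 and an adjusted p of 0.635 there. Its lowest isoform p in the striatum was that of a 10-exon NIC isoform, not of the 12-exon isoform described below (diffSpliceDGE, unadjusted p = 0.0010 and 0.0070). In the cortex the order was reversed (0.0058 and 2.7e-06). Among known, NIC and NNC reads, the NIC isoform averaged 2.52% in cortex NT and 0.53% in cortex R6/2 samples. In striatum NT and R6/2 samples it averaged 4.07% and 1.37%. With the number of count sets as a term, 0.451% of genes were called by the Simes test, and Sars had an adjusted p of 0.0945. The F test of the same fit gave Sars an adjusted p of 0.0041. Without that term the F test gave Sars an adjusted p of 0.143. It then called 18 of 4437 genes, where the Simes test called 3. Other settings of the Simes test without that term also left Sars uncalled in the striatum. Its adjusted p was 0.97 with isoforms of at least 5 reads. The value was higher still with known isoforms alone, with ISM isoforms added and with the replicate number as a block. Between regions 0 of 21 were called, where 1.33% of 5641 genes were and 8.40% had an unadjusted p under 0.05. The lowest synthetase p was that of Tars2 (0.029, adjusted 0.464).

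The main known Sars isoforms, ENSMUST00000102625 with 12 exons and ENSMUST00000090553 with 11, differ by the cassette exon shown above. As listed they have 1866 and 3570 bases, so they also differ in length outside that exon, and the part of read length in their shares was not tested beyond the values by count set below. The share of the 12-exon isoform among complete reads (known, NIC and NNC) was 16.3% (20 of 123 reads), 29.9% (56 of 187), 18.7% (17 of 91) and 29.1% (53 of 182) in cortex NT samples 1 to 4. In cortex R6/2 samples it was 7.34% (13 of 177), 9.90% (19 of 192), 8.20% (26 of 317) and 8.33% (15 of 180). The highest R6/2 value was below the lowest NT value.

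The direction in the striatum was the same. Labels do not say whether striatal and cortical samples come from the same mice. The 12-exon share was 23.8% (54 of 227 reads), 17.6% (61 of 346), 19.1% (22 of 115) and 16.7% (5 of 30) in NT samples 1 to 4, and 2.05% (3 of 146), 10.2% (38 of 372), 8.73% (31 of 355) and 12.6% (11 of 87) in R6/2 samples 1 to 4. All 4 R6/2 samples lay below all 4 NT samples here too. The thinnest sample was striatum NT 4, whose 95% Wilson interval ran from 7.34% to 33.6% and covers counting error only.

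In means, the 12-exon share was 23.5% ± 7.04 (SD, n = 4) in cortex NT and 8.44% ± 1.06 in cortex R6/2, a difference of -15.1 percentage points, and 19.3% ± 3.16 in striatum NT and 8.41% ± 4.53 in striatum R6/2, a difference of -10.9 points. The exact permutation p was 0.0286 in each region, the smallest that 70 arrangements can give. Sars had been called for isoform usage on the same cortical reads, so the cortical p adds no separate evidence. Members, Sars included, were also chosen with earlier results of these data known, so the striatal p is no independent support either. How often isoforms of other genes separate this fully was not counted. The striatal difference was -10.5 points within the samples of 1 set and -11.2 points within those of 2 sets. The genotype differences of the regions differed by 4.17 points (exact permutation p = 0.622 over 4900 arrangements). The regions differed by -4.20 points in NT mice (exact p = 0.343) and by -0.03 points in R6/2 mice (exact p = 1), and neither passed the threshold. The 11-exon isoform (ENSMUST00000090553) held most of the rest, with 69.2% ± 7.40 in cortex NT, 86.2% ± 1.35 in cortex R6/2, 71.1% ± 6.03 in striatum NT and 85.0% ± 3.43 in striatum R6/2 samples. The gene's total reads were not called between genotypes in either region.

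**Figure D5:**
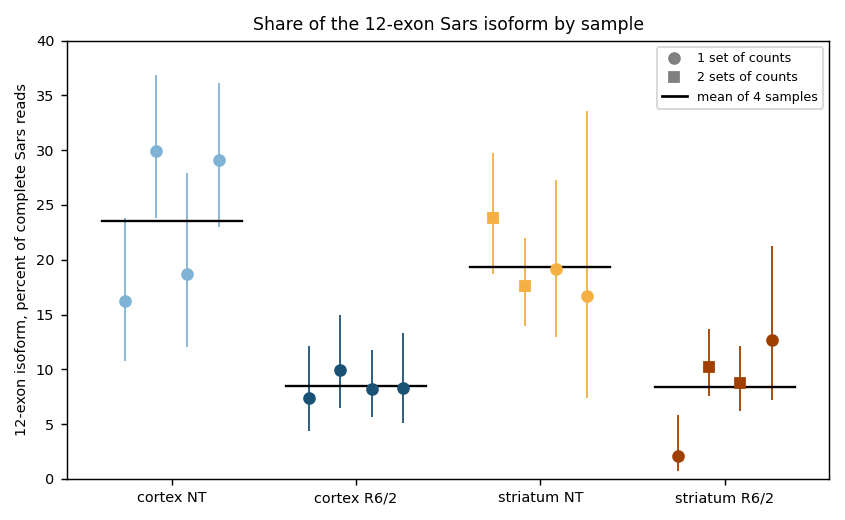
Share of the 12-exon Sars isoform among complete Sars reads in percent, 1 point per sample with its 95% Wilson interval and the mean of each group as a line, with squares for samples of 2 sets of counts. R6/2 samples lie at 7.34% to 9.90% in cortex and 2.05% to 12.6% in striatum, below every NT sample of the same region.

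A UG-rich string (TGTGTG, as read by TDP-43) and GGACT (a core in which adenosine is often methylated to m6A) were searched on the coding strand of the Sars exon. Neither was in its 72 bases. Among 1334 annotated internal exons of 72 bases, 1.65% held the first and 9.60% the second. The search says only that TGTGTG and GGACT are not in that window. The paper's motifs are broader, UGUGU for TDP-43 and DRACH for m6A (D is not C, R is A or G, H is not G). The exon does hold GAACA, a string that fits DRACH, and how often DRACH occurs in exons of this length was not counted.

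For Kars, the share of complete reads with the mitochondrial first coding exon was 28.6%, 40%, 33.3% and 20.7% in cortex NT and 18.5%, 17.4%, 31.3% and 34.6% in cortex R6/2 samples. In the striatum it was 31.3%, 39.1%, 38.7% and 9.09% in NT and 38.5%, 33.3%, 31.4% and 55.6% in R6/2 samples. Groups overlapped in both regions. The differences were -5.20 points in the cortex and 10.2 points in the striatum (exact permutation p = 0.429 in each), and the samples had 11 to 87 complete reads. Within striatal samples of 1 set the difference was 23.1 points and within those of 2 sets -2.78 points, of opposite sign. The cytosolic 14-exon form (ENSMUST00000034426) held 62.9% of all complete Kars reads and the mitochondrial 15-exon form (ENSMUST00000093120) 27.6%.

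Of 21 genes with several isoforms, 14 had at least 50 complete reads in each of the 4 groups, and among these the genes with the largest differences in an isoform's share between genotypes were described further, without a test. Pars2, Tars2, Cars2, Eprs and Cars had larger differences than some of those described but fell short of this minimum. For Rars2, the known 20-exon isoform (ENSMUST00000029968) made up 100%, 63.2%, 90.0% and 81.0% of complete reads in cortex NT and 60.0%, 58.3%, 66.7% and 37.5% in cortex R6/2 samples, on 6 to 21 reads a sample. The groups overlapped, and in the striatum the shares were 72.8% ± 8.04 in NT and 65.8% ± 7.57 in R6/2 samples. For Mars, the 21-exon isoform (ENSMUST00000037290) was at 33.3%, 30.4%, 22.2% and 100% in striatum NT and 32.0%, 21.7%, 27.0% and 37.5% in striatum R6/2 samples. The value of 100% rests on 4 reads.

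Nars had a steady unannotated form beside its known one. The known 15-exon isoform (2632 bases) made up 60.2% ± 7.26 of complete reads in cortex NT, 55.0% ± 4.22 in cortex R6/2, 47.9% ± 7.75 in striatum NT and 58.1% ± 1.16 in striatum R6/2 samples. An NNC isoform with the same number of exons, 15, and 2629 bases, 3 fewer, had 433 reads. Its group means were 33.1%, 36.2%, 34.3% and 31.1% in that order. It was read in each sample at 15.4% to 45.2%. For Rars, a NIC isoform of 16 exons and 2202 bases held 26.4% of complete reads (144 reads), and for Cars2 a NIC isoform of 15 exons held 60.4% beside 17.1% for the known isoform.

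Tars2 was singled out after its values were seen, and how often shares of other genes separate without overlap was not counted. Its known 18-exon isoform held 67.0% ± 3.32 of complete reads in striatum NT (62.5% to 69.8%, 88 reads) and 47.3% ± 5.62 in striatum R6/2 samples (42.3% to 53.8%, 87 reads), without overlap. In the usage test, which held this isoform and a NIC isoform of 17 exons alone because the others had too few reads, the 18-exon isoform was not called in the striatum (log2 change of -0.13, unadjusted p = 0.696 from diffSpliceDGE). In the cortex the ranges of 56.3% to 76.9% in NT and 33.3% to 66.7% in R6/2 samples overlapped, on 48 and 42 reads.

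Other genes of tRNA charging and of the amino acid response were read alongside. Of the 11 members of the multisynthetase complex, scaffolds included, 10 were tested in each comparison and 0 were called between genotypes or regions. Over all genes tested, for this list and those below, 3.22% were called in the cortex, 0.509% in the striatum and 28.6% between regions. Among 14 partners of tRNA charging, 9 were tested in the cortex, 12 in the striatum and 11 between regions. The single call was Xpot, the exporter of tRNA from the nucleus. It was lower in the striatum (log2 fold change -0.75 ± 0.20, adjusted p = 0.0082), where 14.6% of all genes were called lower. The 10 genes of translation elongation gave 0 genotype calls, and between regions 3 of 9 tested were lower in the striatum, where 14.6% of all genes were called lower, Eef1a2 (-0.97), the elongation factor of mature neurons, among them.

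Of 26 genes induced by ATF4 or listed with it, 10 in the cortex and 11 in the striatum were tested between genotypes and 0 were called. With the number of count sets as a term, Mthfd2, a mitochondrial enzyme of folate metabolism, was called higher in R6/2 striatum (1.29 ± 0.32, adjusted p = 0.039). With that term 4.34% of all genes were called. Between regions 6 of 14 were called, where 28.6% of all genes were, with Psat1 (serine synthesis, 0.99 ± 0.17) among 3 that were higher in the striatum, and Atf4 itself (-0.89 ± 0.14) and Sesn2 (-1.55 ± 0.26) among 3 that were lower. Of 6 eIF2 kinases and phosphatase subunits, cortical reads allowed a test of 1 and striatal reads of 2, as did the regional comparison, and 0 were called. All tests in these lists are edgeR's quasi-likelihood test with p values adjusted over all genes tested.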

How the data were processed

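The authors deposited unnormalized counts of Iso-seq reads per TALON isoform, taken before transcript filtering and mapped to mm10 with minimap2 2.17-r941. RNA was treated with an exonuclease and amplified cDNA was sequenced without molecular identifiers. Groups and sex came from the sample labels, and age from the study. The count sets of 4 striatal samples were summed. Gene reads include the known, ISM, NIC and NNC classes, while genomic, antisense and intergenic classes were left out.

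Genes were tested over the whole table with edgeR 4.0.16 (R 4.3.3, TMM, filterByExpr, glmQLFTest), genotype within region on 8 samples and region and interaction on 16, and p values were adjusted by Benjamini-Hochberg at 0.05. CPM are scaled to TMM-normalized totals of gene reads. Isoform usage used diffSpliceDGE. Shares were compared by exact permutation, two-sided (scipy 1.17.1) with 95% Wilson intervals. DESeq2 1.42.0 was an alternative. The scripts were tested on simulated data with a fixed spread. Of 2-fold gene changes, 52.7% were called in the cortex and 55.4% in the striatum, so a gene not called may still have changed. Of 4-fold isoform changes, 60.5% and 57.5% were called. Named with values per sample are genes that were called, the 3 most read of each kind, Sars, Kars and Gars, and for isoforms the 6 genes with the largest genotype difference in a share. 1 mitochondrial gene and 1 promoter match, counted among the members, are not reported here by name or in the figures. The text marks other genes as chosen by value. Members and lists were chosen with earlier results of these data known. Labels do not say whether samples come from separate mice, so p values measure the spread between samples.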

Additional observations from a re-analysis of the deposited data

Results flagged for a closer look

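In all, 44 groups of 4 values were checked. They were levels of Sars, Nars, Gars, Kars, Fars2, Yars2 and Rars2, the summed levels, and the Sars and Kars isoform shares. Of these groups, 3 held a sample far from the other 3 by Dixon's criterion, where chance flags about 5% of groups. In cortex NT, sample 1 had 179 CPM of Gars, with the others at 269 to 288 CPM. In the same group, sample 3 had 73.1 CPM of Yars2, with the others at 38.7 to 40.6 CPM, and the summed mitochondrial synthetases of sample 3 reached 585 CPM, with the others at 362 to 398 CPM. No synthetase gene was called for a difference in its genotype effect between regions by the interaction test of edgeR or DESeq2.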

How the results depend on the processing

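Over 16 results, 288 alternatives were run: 249 kept the direction and the side of the threshold or moved by less than the spread between samples, 22 kept the direction without passing the threshold, 17 moved and 0 reversed. No synthetase was called between genotypes in cortex or striatum, or for the interaction, under any setting run, with DESeq2 or without any 1 sample. Between regions, the 1 call of edgeR became 2 with the genomic class added (Aars and Sars) or with ISM isoforms left out (Farsa and Sars), 10 with striatal samples of 1 set and 4 with those of 2 sets, and 1 to 3 with each sample left out. Sars was at -0.45 (adjusted p = 0.147, where Aars was called instead) without a filter on low counts, where the regional median of the mitochondrial genes was 0.27 in place of -0.10, and at -0.32 with 2 sets. That median was -0.37 with 1 set and 0.18 with 2 sets, and the cytosolic one -0.39 with 1 set in place of -0.11. With ISM isoforms added, isoform usage between regions was called for 1 synthetase (Lars). The isoform call in the cortex became 0 to 1 with each sample left out. The 12-exon Sars share differed by -17.5 to -12.9 points in the cortex and by -12.3 to -8.77 points in the striatum with each sample left out, where the exact permutation p of 0.0571 is the smallest possible. In the striatum it was -8.48 points with ISM reads in the total (exact p = 0.0571), and arrangements within numbers of count sets gave an exact p of 0.0556 for the -10.9 points, again the smallest possible. The cause of these changes was not tested, apart from the smaller number of arrangements.

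Samples of a group share only a number with those of other groups: the correlations of same-numbered samples ran from -0.07 to 0.17 between cortical genotypes from -0.57 to 0.62 between striatal ones, from -0.23 to 0.22 between regions in NT and from -0.04 to 0.40 between regions in R6/2, where 3 of 4 cortical samples correlated best with their own number, a hint from the data and not from the design. With the replicate block, 0 synthetases were called between genotypes on gene reads, and Sars was called between regions (-0.60, adjusted p = 0.0194). For isoform usage the block gave a call of Sars in the cortex (adjusted p = 0.0294) and 0 calls in the striatum. Sign-flips of paired samples gave -15.1 points in the cortex and -10.9 points in the striatum (exact permutation p = 0.125, the smallest possible). Depth limits the lowest genes at the filter on low counts: Iars, Lars2, Mars2, Pars2, Sars2, Vars2 and Wars2 did not pass it in the genotype or region comparisons.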
